A study of Mus musculus with 12 samples.

Results

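The genes described here encode the proteins of the cytosolic ribosome, measured by RNA sequencing of whole mouse liver. Members were chosen by symbol: Rpl or Rps followed by a number and at most 1 of the letters a, l or x, the 3 stalk genes Rplp0, Rplp1 and Rplp2, and Rpsa. Names ending in -ps, which mark pseudogenes, were left out. The rule matched 83 of the 55401 genes in the table, and 79 of them had a mean of 1 CPM (each library's counts scaled to a common size with TMM factors) or more over all libraries. These 79 genes, 47 of the large subunit and 32 of the small subunit, are the members below, and all 79 passed the filter on low counts that left 17585 genes to be tested. The 4 matches under the threshold were Rpl10l with no count in any library, Rpl3l with a mean of 0.0103 CPM, Rpl39l with 0.0148 CPM and Rpl32l with 0.13 CPM. The member just inside it, Rpl6l, had 13.1 CPM, so no member lay near the threshold.

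The 12 libraries formed 4 groups of 3. FBXL5ΔDC mice were Cd11c-Cre/Fbxl5F/F animals: both Fbxl5 alleles are flanked by loxP sites, and Cre is driven by the promoter of Cd11c (Itgax), a gene expressed mainly in dendritic cells. Control mice were Fbxl5F/F animals with the same floxed alleles and no Cre. Livers of each genotype were taken 6 h after an intraperitoneal injection of acetaminophen, a pain reliever that kills hepatocytes when overdosed, or without treatment, called 0 h here. All mice were males of 7 to 10 weeks. Injected mice had been fasted for 16 h and were fed afterwards, while the labels do not say whether 0 h mice were fasted, so drug, fast and refeeding cannot be told apart in a 6 h minus 0 h comparison. The labels name doses of 300 and 500 mg/kg without saying which was given here. They do not say how litters or days were spread over groups, so p-values measure only the spread between these samples. FBXL5 senses iron and directs an iron regulatory protein to degradation, and its deletion in this model is not aimed at hepatocytes, the main source of liver RNA.

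A ribosome is built in the nucleolus from ribosomal RNA, transcribed by RNA polymerase I, and from ribosomal proteins made in the cytoplasm in near-equal numbers. The mRNAs of these proteins are abundant and stable, and most begin with a C followed by pyrimidines, the terminal oligopyrimidine (TOP) tract, through which growth signalling by mTOR governs how much of each mRNA is translated. The amount of these mRNAs is therefore only one of the controls on ribosome supply, and RNA sequencing does not measure their translation. In liver, ribosome production is known to rise with feeding and during regeneration.

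Start sequences are shown here for some of the members named below, because most of these mRNAs are known to begin with a TOP tract. Each line gives 30 bases on the gene's own strand, 5′ to 3′, from 15 bases before to 15 bases from the annotated RefSeq start onwards (assembly GRCm38.p6), and capitals mark a run of at least 5 pyrimidines that begins with C within 5 bases of that start. The windows were chr7:118116133-118116162 (minus strand) for Rps15a, chr2:32961697-32961726 (plus) for Rpl12, chr7:109519180-109519209 (plus) for Rpl27a and chr14:24490663-24490692 (plus) for Rps24. Those of Rps23, Rpl10a, Rps18 and Rpl22 were chr13:90923107-90923136 (plus), chr17:28328456-28328485 (plus), chr17:33955651-33955680 (minus) and chr4:152325711-152325740 (plus). The first 6 genes were higher 6 h after acetaminophen in at least 1 genotype, and Rps18 and Rpl22 were among the members whose level differed least.
Rps15a: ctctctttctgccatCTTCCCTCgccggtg
Rpl12: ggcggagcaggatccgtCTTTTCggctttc
Rpl27a: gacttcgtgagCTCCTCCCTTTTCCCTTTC
Rps24: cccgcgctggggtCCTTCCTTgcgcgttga
Rps23: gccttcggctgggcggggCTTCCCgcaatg
Rpl10a: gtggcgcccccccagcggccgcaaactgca
Rps18: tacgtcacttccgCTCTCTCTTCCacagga
Rpl22: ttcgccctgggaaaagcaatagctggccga
Rpl10a and Rpl22 had no such run in this window, although a single annotated start need not be the one used in liver. Among called members not shown, Rpl27, Rpl9 and Rpsa had none either. Nor had Rpl37a and Rps28, each among the least changed members in 1 genotype. In Rps15a and Rps18 the run included a C at the annotated start itself, and in Rpl12, Rpl27a, Rps24 and Rps23 it did not.

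RefSeq promoters of 300 bases were matched for 57 of the 79 members. A run of this kind began within 5 bases of the annotated start in 27 of the 57 (47.4%), against 18.5% of 27025 genes with a promoter. A run of at least 5 pyrimidines with its C exactly at that start, as in a TOP tract, stood in 12 (21.1%), against 2.49%. The motif CCGGAAG, the core bound by ETS factors, was present on either strand in 23 of the 57 promoters (40.4%), against 9.12% of all promoters. TCGCGA was present in 12 (21.1%), against 2.58%, while TATAAA was present in 5 (8.77%), against 14.2%. The YY1 core AAGATGG was found in 8 (14.04%), against 6.48%, the E-box CACGTG in 5 (8.77%), against 7.24%, and the AP-1 site TGACTCA in 2 (3.51%), against 5.17%, all searched on both strands. These are matches of letters and do not show binding, and different motifs could share bases. The median log2 change after acetaminophen was 0.24 in FBXL5ΔDC livers and 0.08 in control livers for the 27 members with a run, and 0.26 and 0.13 for the 30 without one. Of the 27 with a run, 5 were called higher in FBXL5ΔDC livers and 2 in control livers. Of the 30 without one, 4 and 0 were called higher, with a background of 15% and 6.36% of all tested genes.

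The members were spread over 19 chromosomes, with 14 of them on chromosome 7. In GENCODE vM21, 77 are protein coding and Rpl6l and Rps4l are processed pseudogenes of a single exon. The coding members have 3 to 10 exons, and 29 members host 56 small nucleolar RNAs in their gene bodies, RNAs that guide the modification of ribosomal RNA. Hosts had a median log2 change of 0.27 in FBXL5ΔDC livers and 0.15 in control livers, against 0.22 and 0.07 for the 50 members that host none. Exons of 18 members overlap those of a gene on the other strand, and since the strand setting of the counting was not given, reads of such pairs cannot be told apart. Processed copies are another limit, because reads of near-identical sequences may be split: 317 rows named as pseudogenes of members held counts equal to 6.35% to 7.56% of the members' own.

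Levels between genes are compared as mean CPM per kilobase of the shortest principal transcript. The median of the 79 members was 173 CPM per kb. The highest levels were those of Rps2 (491 CPM per kb), Rplp1 (476), Rpl10 (409), Rpl41 (388) and Rpl13a (335). The ranges over libraries overlapped between these neighbours: Rps2 ran from 440.5 to 587 CPM per kb, Rplp1 from 409 to 539 and Rpl10 from 352 to 480.0. The lowest levels were those of the pseudogenes Rpl6l (15.0) and Rps4l (20.4), then Rpl21 (25.9), Rps20 (27.7) and Rpl17 (61.0), and the value of Rps20 rests on an annotated transcript of 3706 bases that is far longer than the median of 729 bases.

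The members varied little between libraries. For each gene the highest library was set against the lowest: the ratio was 1.44 at the median member and under 2 in 73 of the 79. The 6 others, chosen after their values were seen, were Rpl7a (ratio 4.47), Rps4l (3.06), Rps27a (2.85), Rps27 (2.57), Rpl21 (2.23) and Rps13 (2.14). The median biological coefficient of variation, edgeR's measure of the spread between replicates, was 0.147 for the members. It was 0.168 for 6363 tested genes in the same range of mean CPM and 0.285 for all tested genes.

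Library totals ran from 67173096 to 72512319 counts. The 12 hepatocyte markers summed to between 89420 and 172900 CPM in the libraries, and none was at 0 throughout a group. Fbxl5 itself had 12.5 to 21.8 CPM in FBXL5ΔDC livers at 6 h and 13.3 to 19.2 CPM in control livers at 6 h, and 10.3 to 21.4 CPM in FBXL5ΔDC livers at 0 h and 17.6 to 22.0 CPM in control livers at 0 h, ranges that overlap. Whole liver does not check a deletion in dendritic cells. Members held 1.13 ± 0.0927% of all counts in FBXL5ΔDC livers at 6 h and 1.26 ± 0.0146% in control livers at 6 h, and 0.986 ± 0.0335% in FBXL5ΔDC livers at 0 h and 1.15 ± 0.0397% in control livers at 0 h (mean ± SD, n = 3 each). Their summed TMM-scaled level was 12296 ± 1750 and 11778 ± 925 CPM at 6 h in FBXL5ΔDC and control livers, and 10270 ± 367 and 10834 ± 519 CPM at 0 h. Mitochondrially encoded genes held 9.19% of counts in FBXL5ΔDC livers at 6 h, 6.60% in control livers at 6 h, 6.54% in FBXL5ΔDC livers at 0 h and 6.34% in control livers at 0 h. Without mitochondrially encoded genes, members held 1.24 ± 0.101% in FBXL5ΔDC livers at 6 h and 1.34 ± 0.011% in control livers at 6 h, and 1.06 ± 0.0387% in FBXL5ΔDC livers at 0 h and 1.23 ± 0.0507% in control livers at 0 h (mean ± SD, n = 3 each), so the lower share in FBXL5ΔDC livers was also there without them. The tests below use the TMM-scaled levels.

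One library stood apart for these genes. Replicate 3 of FBXL5ΔDC livers at 6 h was the lowest of its group in 76 of the 79 members. Its median log2 difference from the mean of control livers at 0 h was -0.08, while replicates 1 and 2 had 0.26 and 0.27. It also had the most detected genes, 21405, and a TMM factor of 0.999 against 0.910 and 0.855 in replicates 1 and 2. Among control livers at 6 h, replicate 3 was the highest in 69 members, with a median difference of 0.22 against 0.05 and 0.02 in replicates 1 and 2. Counts of calls and medians that move with either library are given with and without it.

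**Figure D1:**
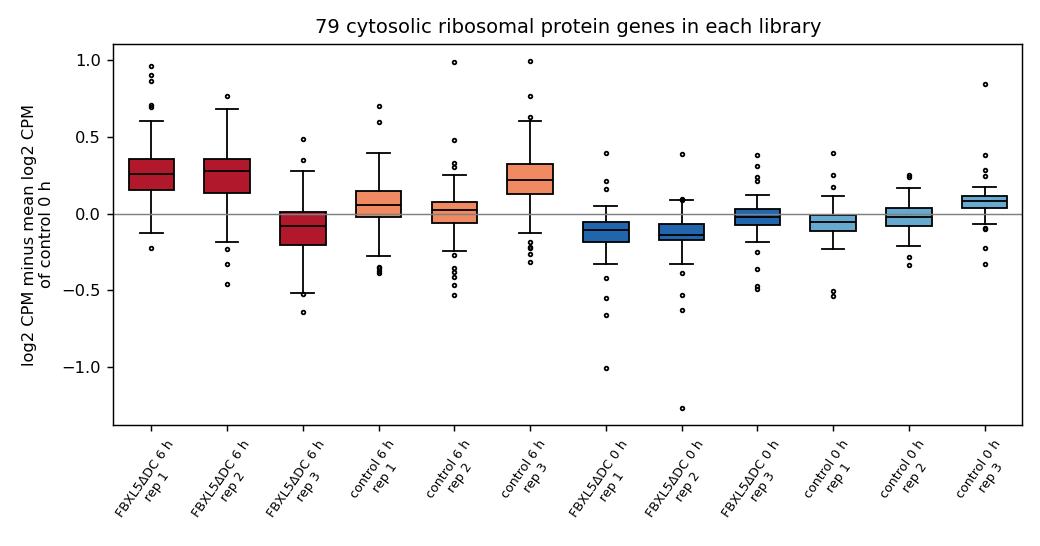
The 79 cytosolic ribosomal protein genes in each of the 12 libraries, as log2 CPM minus the mean log2 CPM of the 3 control livers at 0 h. Boxes span the middle 50% of the genes with the median as a line, whiskers reach 1.5 box heights and dots are genes beyond them. Medians of FBXL5ΔDC livers at 6 h are 0.26, 0.27 and -0.08, and that of control liver replicate 3 at 6 h is 0.22.

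The first question was how these genes respond to acetaminophen in FBXL5ΔDC mice. Their median was slightly higher 6 h after the drug, and 11 of 79 members (13.9%) rose and 0 fell (edgeR's quasi-likelihood test, Benjamini-Hochberg adjusted p below 0.05 over all tested genes). Among all tested genes 15% rose and 15.1% fell, so the share that rose was near the background. At an unadjusted p under 0.05, 22 members were higher and 0 lower, while 7097 of 17585 tested genes had such a p in either direction. DESeq2's Wald test called 16 members (20.3%) higher and 0 lower, near its background of 17.8% higher and above 0 for lower (17.2%). The median member had a log2 change of 0.24, against 0.02 for all tested genes, and 75 of 79 members had a positive change. Changes ran from -0.09 to 0.69, so none reached 2-fold, while 32.7% of all tested genes differed by more than that. The standard deviation of the log2 changes was 0.16 over members and 1.69 over all tested genes. Libraries at 6 h were all above those at 0 h in 17 members and all below in 0, with a background of 24.2% and 24.5% of all tested genes.

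The call count turned on replicate 3 at 6 h. Without it 35 of 79 members (44.3%) were called higher, all 79 changes were positive and the median log2 change was 0.35, while 11.3% of all genes tested in that fit were called higher. Without replicate 1 or replicate 2 at 6 h, 4 were called and the median was 0.18, with a background of 11.5% and 12%. Leaving out replicate 1, 2 or 3 at 0 h of the same genotype gave 4, 4 and 5 calls, with a background of 10.5%, 10.1% and 9.98%. Leaving out control liver replicate 3 at 6 h, which is in neither group of this comparison and acts through the shared fit, gave 17 calls with a background of 16.9%. Rpl10a, Rpl12 and Rpl3 were called in each of these fits and under every other alternative tried.

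Rpl10a, a large subunit protein on GRCm38 chromosome 17 (28328471 to 28331033, 6 exons), had the largest change of the members in this comparison. It measured 207, 232 and 191 CPM in FBXL5ΔDC livers at 6 h, against 134, 131 and 126 CPM in FBXL5ΔDC livers at 0 h. All libraries at 6 h lay above all at 0 h, and the log2 change was 0.69 ± 0.13 (SE) with an adjusted p of 0.00217 in edgeR. An exon of CT025652.2 on the other strand overlaps it.

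Rpl3 (chromosome 15, 80077791 to 80091868, 10 exons) encodes a protein close to the peptidyl transferase centre, where peptide bonds form. It had 232, 226 and 181 CPM in FBXL5ΔDC livers at 6 h, against 127, 146 and 129 CPM in FBXL5ΔDC livers at 0 h, and the groups did not overlap. The log2 change was 0.67 ± 0.16 (adjusted p = 0.00816, edgeR). Rpl12 (chromosome 2, 32961559 to 32965345, 7 exons), a protein at the base of the stalk where elongation factors bind, had 168, 155 and 126 CPM at 6 h and 96.7, 98.1 and 92.7 CPM at 0 h in the same genotype. Here too every library at 6 h was above every one at 0 h, with a log2 change of 0.64 ± 0.12 (adjusted p = 0.00232, edgeR). An exon of Lrsam1 overlaps Rpl12 on the other strand.

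Rpl27, of the large subunit, had 135, 142 and 113 CPM in FBXL5ΔDC livers at 6 h, against 86.6, 96.7 and 98.2 CPM in FBXL5ΔDC livers at 0 h. The groups did not overlap, and the log2 change was 0.47 ± 0.13 (adjusted p = 0.015, edgeR). It lost its call without replicate 1 or 2 at 6 h or replicate 1 at 0 h (highest adjusted p = 0.0722). The other calls were Rpl27a, Rpl8, Rpl9, Rps15a, Rps23, Rps24 and Rpsa, with log2 changes from 0.37 for Rpl9 to 0.42 for Rpsa and adjusted p-values in edgeR up to 0.0416 for Rpl8. Rpl27a, which holds a long pyrimidine run across its annotated start, had 170, 183 and 155 CPM in FBXL5ΔDC livers at 6 h. In FBXL5ΔDC livers at 0 h it had 126, 122 and 135 CPM. Rps24, whose pyrimidine run is shown above, had 143, 143 and 115 CPM at 6 h and 101, 99.6 and 108 CPM at 0 h. Rps23 had 122, 136 and 105 CPM at 6 h and 87.3, 90.2 and 97.5 CPM at 0 h. Rpl8 had 332, 324 and 253 CPM at 6 h and 241, 213 and 233 CPM at 0 h, and Rpl9 had 146, 162 and 127 CPM at 6 h and 110.3, 108 and 119 CPM at 0 h. In each of these 5 genes replicate 3 was the lowest at 6 h and still above every library at 0 h. All 7 of these genes lost their calls under 1 or more of the leave-one-out fits. Over all alternatives tried, their adjusted p-values in edgeR reached up to 0.152 for Rpl8.

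Of 47 large subunit genes, 7 (14.9%) rose with a median log2 change of 0.25, and of 32 small subunit genes, 4 (12.5%) rose with a median of 0.23, shares that do not exceed the background of 15%. Rpsa, which sits on the small subunit and is also known as the laminin receptor precursor, had 458, 451 and 343 CPM in FBXL5ΔDC livers at 6 h and 309, 306 and 322 CPM in FBXL5ΔDC livers at 0 h. All libraries at 6 h were higher, and the log2 change was 0.42 ± 0.12 (adjusted p = 0.0228, edgeR).

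None of the 3 stalk genes, whose proteins recruit elongation factors, passed the test. Rplp0 had 431, 415 and 349 CPM in FBXL5ΔDC livers at 6 h, against 316, 328 and 350.4 CPM in untreated livers of that genotype (log2 change 0.26 ± 0.12, adjusted p = 0.116, edgeR). Replicate 3 at 6 h lay below replicate 3 at 0 h, so the groups overlapped. Changes were 0.09 ± 0.12 for Rplp1 and 0.26 ± 0.13 for Rplp2.

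Rpl5 and Rpl11, which can bind the p53 regulator MDM2 when ribosome assembly is disturbed, were also not called. Rpl5 had 247, 276 and 197 CPM in FBXL5ΔDC livers at 6 h and 192, 174 and 192 CPM in FBXL5ΔDC livers at 0 h, which did not overlap (log2 change 0.37 ± 0.13, adjusted p = 0.0553, edgeR). Rpl11 had 212, 198 and 151 CPM at 6 h, against 163, 165 and 167 CPM at 0 h, and replicate 3 at 6 h was the lowest of the 6 (0.18 ± 0.12, adjusted p = 0.309, edgeR). Rps6, the small subunit protein that is phosphorylated when mTOR is active, had 313, 333 and 246 CPM at 6 h and 241, 221 and 239 CPM at 0 h, without overlap and just short of a call (0.35 ± 0.12, adjusted p = 0.0504, edgeR).

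The 4 members with a negative change were Rpl41 (-0.09), Rps27l (-0.07), Rpl38 (-0.04) and Rpl37a (-0.01), and their groups overlapped. Rps27l, a paralogue of Rps27 that is known as a p53 target, had 80.2, 93.6 and 65.6 CPM in FBXL5ΔDC livers at 6 h and 79.5, 80.2 and 91.1 CPM in FBXL5ΔDC livers at 0 h. Rpl37a had the change nearest to 0, with 97.2, 97.0 and 66.5 CPM at 6 h and 80.3, 87.1 and 95.7 CPM at 0 h (-0.01 ± 0.15, adjusted p = 0.962, edgeR), followed by Rpl22 (0.03 ± 0.12). In both genes replicate 3 was the lowest at 6 h, and the sign of Rpl37a turned positive without it (0.15).

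**Figure D2:**
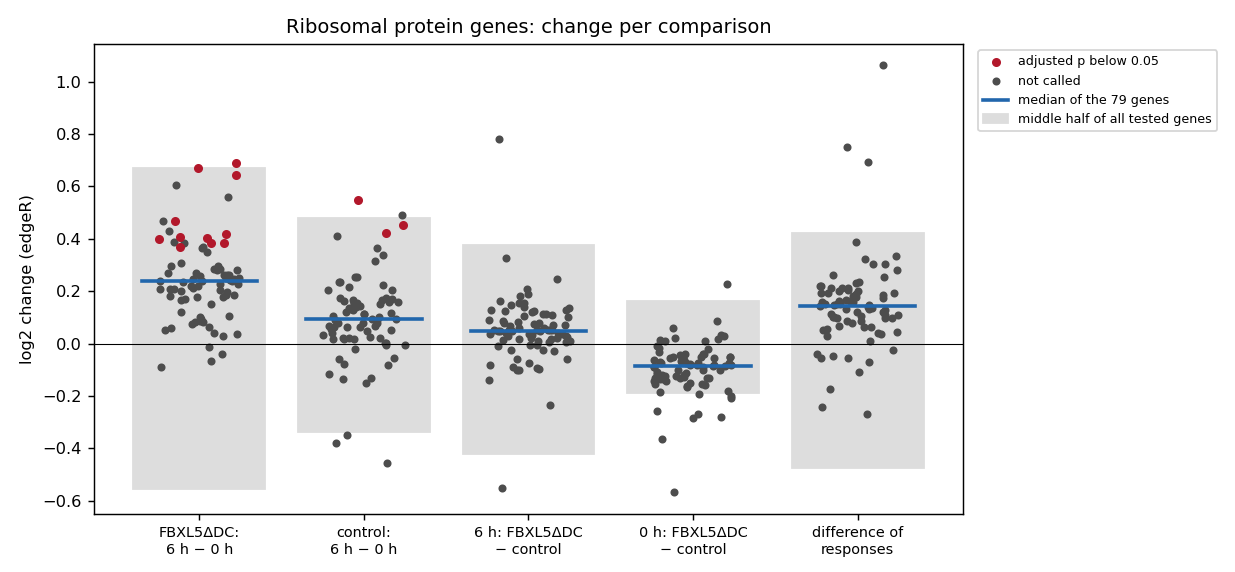
Log2 change of each of the 79 ribosomal protein genes in the 5 comparisons, from edgeR. Each dot is a gene, red dots have an adjusted p below 0.05, the blue line is the median and the grey band spans the middle 50% of all 17585 tested genes. The medians are 0.24, 0.10, 0.05, -0.09 and 0.14, and nearly all members lie inside the band of the first comparison.

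The same question was asked in control mice, whose untreated and treated livers are other libraries than those of FBXL5ΔDC mice. Here 3 of 79 members (3.8%) rose and 0 fell, with 6.36% and 4.2% of all tested genes rising and falling. Of the others, 3 more were higher and 1 was lower at an unadjusted p under 0.05. Among all tested genes 4346 of 17585 had such a p in either direction. DESeq2 called 3 members (3.8%) higher and 0 lower, with a background of 10.2% and 7.24%. The median log2 change was 0.10, against 0.03 for all tested genes, and 65 changes were positive. With upper quartile factors the median was 0.02 and 46 changes were positive, with all tested genes at -0.03. With TMM, as in the main test, the changes ran from -0.46 for Rps27a to 0.55 for Rpl3. Libraries at 6 h were all above those at 0 h in 14 members and all below in 1, with a background of 15.3% and 13.4%.

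The 3 called genes, Rpl3, Rps15a and Rpl12, were all among the 11 called in FBXL5ΔDC livers. Rps15a (chromosome 7, 118104372 to 118116188, 5 exons), a small subunit gene, had 70.3, 67.3 and 82.8 CPM in control livers at 6 h, against 52.0, 51.5 and 57.4 CPM in control livers at 0 h. The groups did not overlap (log2 change 0.45 ± 0.12, adjusted p = 0.0372, edgeR). In FBXL5ΔDC livers it had 71.7, 79.5 and 60.1 CPM at 6 h and 55.4, 53.2 and 53.2 CPM at 0 h, a change of 0.38 ± 0.12 (adjusted p = 0.0338, edgeR).

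Rpl3 had 231, 199 and 206 CPM in control livers at 6 h, against 126, 124 and 186 CPM in control livers at 0 h (0.55 ± 0.16, adjusted p = 0.0494, edgeR). Replicate 3 at 0 h was far above the other two and still below every library at 6 h. Rpl12 had 136, 129 and 154 CPM at 6 h and 100.4, 99.6 and 113 CPM at 0 h in control livers, again without overlap (0.42 ± 0.12, adjusted p = 0.0475, edgeR). All 3 calls were close to the threshold and none held under every alternative. With only control libraries in the fit 0 members were called, with a background of 1.45% of all genes tested there. Without control liver replicate 3 at 6 h 0 were called, with a background of 5.23%. The count was also 0 without control liver replicate 1 at 6 h (background 6.16%) or control liver replicate 1 or 2 at 0 h (3.05% and 2.43%). It was 0 too without FBXL5ΔDC liver replicate 1 at 6 h (4.64%) or any 1 of the FBXL5ΔDC livers at 0 h (4.59% to 4.75%). It was 1 without FBXL5ΔDC liver replicate 2 at 6 h (5.13%) or control liver replicate 3 at 0 h (2.65%). Without control liver replicate 3 at 6 h the median member was at 0.04.

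Rpl10a, the leading gene in FBXL5ΔDC livers, had 160, 163 and 207 CPM in control livers at 6 h and 123, 136 and 152 CPM in control livers at 0 h. The groups did not overlap, and the change of 0.37 ± 0.13 missed the threshold (adjusted p = 0.0960, edgeR). The member with all libraries lower at 6 h was Rps27l, with 73.6, 72.2 and 75.4 CPM against 90.8, 88.8 and 102 CPM at 0 h (-0.35 ± 0.13, adjusted p = 0.112, edgeR). Rps18 and Rps28, of the small subunit, had the changes nearest to 0 in control livers (both 0.00 ± 0.13), and their signs turned under several alternatives.

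Rpsa, Rpl5 and Rps6 had non-overlapping groups in control livers too, with smaller changes that were not called. Rpsa had 397, 364 and 399 CPM at 6 h and 312, 311 and 349 CPM at 0 h in control livers (0.25 ± 0.12, adjusted p = 0.230, edgeR). Changes in control livers were 0.15 ± 0.13 for Rpl5, 0.17 ± 0.12 for Rps6 and 0.02 ± 0.12 for Rpl11. The stalk genes Rplp0, Rplp1 and Rplp2 had changes of 0.17 ± 0.12, 0.14 ± 0.12 and 0.13 ± 0.13. The pseudogene Rps4l varied widely within groups, with 22.4, 29.5 and 12.8 CPM at 6 h and 10.3, 17.7 and 18.1 CPM at 0 h in control livers, and 16.9, 10.8 and 16.5 CPM at 6 h and 16.7, 9.64 and 11.6 CPM at 0 h in FBXL5ΔDC livers.

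**Figure D3:**
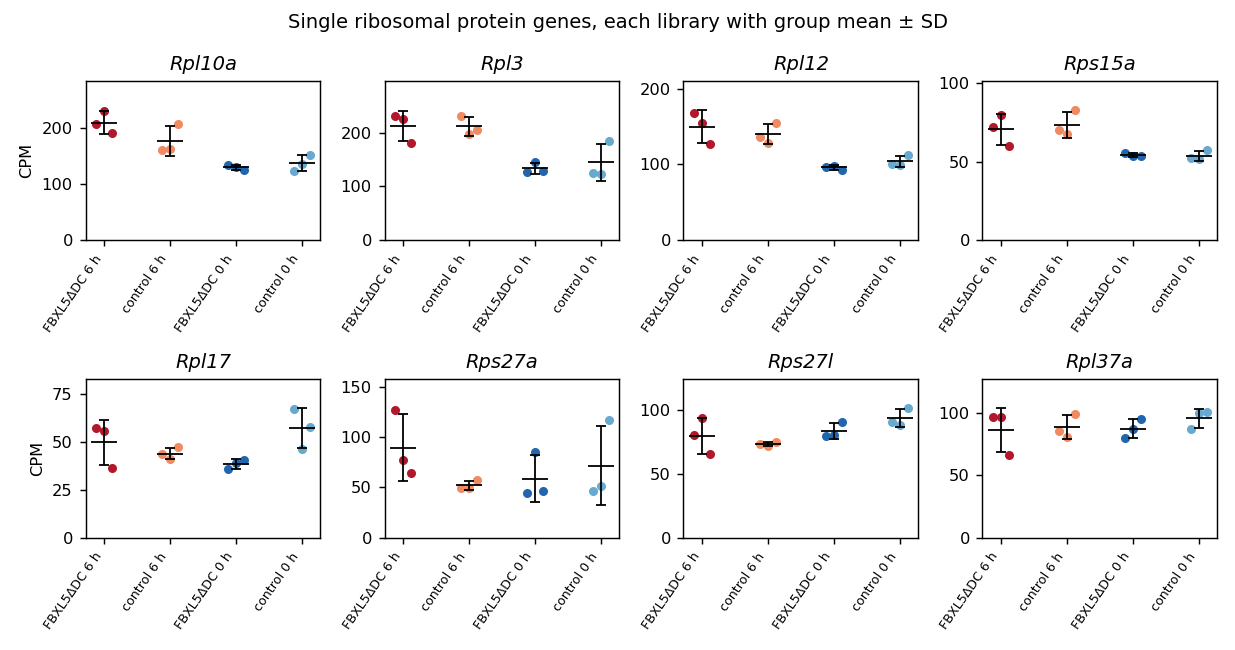
CPM of 8 ribosomal protein genes in each library (dots) with the group mean and SD (bars, n = 3), groups from left to right FBXL5ΔDC 6 h, control 6 h, FBXL5ΔDC 0 h and control 0 h. Rpl10a, Rpl3, Rpl12 and Rps15a are higher at 6 h than at 0 h in both genotypes without overlap, while Rps27l and Rpl37a are not higher.

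FBXL5ΔDC and control livers were next compared at 6 h, where 0 of 79 members were called in either direction (background 1.35% higher and 4.51% lower). In edgeR 0 members had an unadjusted p under 0.05, against 3998 of 17585 tested genes. DESeq2 called 0 (lowest adjusted p = 0.134), with a background of 4.49% higher and 8.49% lower. The median log2 difference was 0.05, against -0.01 for all tested genes, with 61 of 79 positive. All FBXL5ΔDC libraries were above all control libraries in Rps27a and Rpl27a and below them in 0 members, with a background of 9.74% and 11.2%. The median moved with single libraries. It was 0.18 with 75 members positive without FBXL5ΔDC liver replicate 3 at 6 h, and 0.10 with 70 positive without control liver replicate 3 at 6 h. Without FBXL5ΔDC liver replicate 1 or 2 it was -0.0038 or -0.0027, with 38 or 37 positive, and without control liver replicate 1 or 2 it was 0.03 or 0.0085, with 55 or 46 positive. Its sign also turned with the scaling. With library size alone, which shifts the median of all tested genes by -0.23, the members had a median of -0.17 and lay 0.06 above that shift, as they did with TMM.

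Rps27a (chromosome 11, 29545846 to 29548109, 5 exons) is made as a fusion with ubiquitin and had the lowest p. It measured 127, 76.6 and 64.4 CPM in FBXL5ΔDC livers at 6 h and 49.8, 48.9 and 57.3 CPM in control livers at 6 h, a log2 difference of 0.78 ± 0.38 (adjusted p = 0.256, edgeR). At 0 h it had 44.4, 85.2 and 46.3 CPM in FBXL5ΔDC livers and 45.9, 51.6 and 117 CPM in control livers, so single libraries were high in 3 of the groups, and an exon of Clhc1 overlaps it on the other strand. Rpl10a was next (0.25 ± 0.13, adjusted p = 0.285, edgeR) and overlapped between genotypes, since control replicate 3 with 207 CPM exceeded FBXL5ΔDC replicate 3 with 191 CPM. Without control liver replicate 3 at 6 h the difference was 0.38 and was called (adjusted p = 0.0375, edgeR), the single call among the 79 members in that fit, in which 10.1% of all tested genes were called higher and 12.9% lower.

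Untreated FBXL5ΔDC livers had slightly lower values than untreated control livers, and no member was called. Both directions had 0 calls among members and a background of 0% among all tested genes. In edgeR 1 member had an unadjusted p under 0.05, against 465 of 17585 tested genes. DESeq2 called 0 (lowest adjusted p = 0.609), with a background of 0.0456% higher and 0.0342% lower. The difference was negative in 69 of 79 members, with a median of -0.09 against -0.0038 for all tested genes. Leaving out 1 library gave medians from -0.13 to -0.0518, the last without control liver replicate 3 at 0 h, when 24 members were positive. FBXL5ΔDC libraries were all below control libraries in 13 members and all above in 0, with a background of 5.8% and 5.94%. Library size alone moved the median to -0.23, with all tested genes at -0.15.

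The member with the unadjusted p under 0.05 was Rpl17 (chromosome 18, 74998558 to 75003381), a protein at the exit of the peptide tunnel. It had 35.7, 39.1 and 40.7 CPM in FBXL5ΔDC livers at 0 h, against 67.04, 46.4 and 57.9 CPM in control livers at 0 h, without overlap (-0.57 ± 0.18, adjusted p = 1, edgeR). Rps23, a protein of the decoding centre, had the next lowest p, with 87.3, 90.2 and 97.5 CPM in FBXL5ΔDC livers and 111, 110.5 and 108 CPM in control livers at 0 h. These groups did not overlap either (-0.26 ± 0.12, adjusted p = 1, edgeR).

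Whether the response differed between genotypes was tested with the interaction, the response of FBXL5ΔDC livers minus that of control livers. It called 0 of 79 members (background 0.0341% higher and 0.256% lower). In edgeR 1 member was at an unadjusted p under 0.05, against 2543 of 17585 tested genes. DESeq2 made 0 calls (lowest adjusted p = 0.101), with a background of 1.21% higher and 2.7% lower. The median was 0.14, against -0.02 for all tested genes, and 69 values were positive. It was 0.27 with 76 positive without FBXL5ΔDC liver replicate 3 at 6 h, and 0.20 with 73 positive without control liver replicate 3 at 6 h. Without FBXL5ΔDC liver replicate 1 or 2 at 6 h it was 0.09, with 63 positive in each fit. The 11 calls in one genotype and 3 in the other are therefore not shown to differ.

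Rpl17 had the lowest p of the interaction (0.75 ± 0.25, adjusted p = 0.194, edgeR). Its values at 6 h were 57.2, 55.7 and 36.3 CPM in FBXL5ΔDC livers and 43.6, 40.9 and 47.0 CPM in control livers, so the order of the genotypes at 0 h was not seen at 6 h. Its log2 change after the drug was 0.37 ± 0.18 in FBXL5ΔDC livers and -0.38 ± 0.18 in control livers. Rps27a had an interaction of 1.06 ± 0.54 (adjusted p = 0.401, edgeR), the largest of the members. Without control liver replicate 3 at 6 h, Rpl17 was the member called (0.80, adjusted p = 0.0498, edgeR), in a fit that called 5.97% of all tested genes higher and 7.74% lower.

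Ribosome supply needs more than these proteins, and genes of other parts of the machinery had larger changes after acetaminophen. The counts of these lists stand against the 15% of all tested genes that were called higher and 15.1% lower in FBXL5ΔDC livers, and 6.36% and 4.2% in control livers. Genes for ribosome assembly in the nucleolus were called higher in 40 of 46 in FBXL5ΔDC livers and in 39 of 46 in control livers, with median log2 changes of 1.25 and 1.09. Rrp1b, a nucleolar protein, had 25.7, 21.9 and 37.3 CPM at 6 h in FBXL5ΔDC livers, against 3.74, 2.38 and 3.10 CPM at 0 h (3.20 ± 0.41, adjusted p = 0.000267, edgeR). In control livers it had 8.90, 6.84 and 21.9 CPM at 6 h and 4.15, 2.84 and 3.69 CPM at 0 h (1.82 ± 0.39, adjusted p = 0.0127, edgeR). Neither genotype showed overlap, and control replicate 3 was the highest control library.

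Ppan and Heatr1, assembly factors of the large and small subunit, rose in both genotypes. Ppan had log2 changes of 2.71 ± 0.28 in FBXL5ΔDC and 1.49 ± 0.27 in control livers, and Heatr1 of 2.41 ± 0.28 and 1.75 ± 0.28. RNA polymerase I and its factors had 8 of 14 higher and 1 lower in FBXL5ΔDC livers and 5 of 14 higher in control livers, with medians of 0.59 and 0.61. Taf1a, a subunit of the factor that recruits this polymerase, had changes of 1.80 ± 0.22 and 1.23 ± 0.22. Translation initiation factors had 14 of 27 and 13 of 27 higher, with medians of 0.42 and 0.39. Eif6, which keeps the subunits apart and takes part in large subunit assembly, rose by 1.49 ± 0.21 and 1.08 ± 0.21, and Eif4e, which binds the mRNA cap, by 1.50 ± 0.35 and 1.94 ± 0.36.

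Elongation factors and other mRNAs with a TOP tract were nearer to the ribosomal proteins. Of 19 such genes 4 (21.1%) rose in FBXL5ΔDC livers and 1 (5.26%) in control livers, with medians of 0.17 and 0.09, and these shares were near the background of 15% and 6.36%. The exception in size was Hnrnpa1, an RNA-binding protein, with 76.6, 81.3 and 91.9 CPM at 6 h and 25.5, 26.1 and 25.3 CPM at 0 h in FBXL5ΔDC livers (1.70 ± 0.15). It was also called between genotypes at 6 h, with 52.5, 42.7 and 65.5 CPM in control livers (0.64 ± 0.15, adjusted p = 0.0295, edgeR). Tpt1 had changes of 0.43 ± 0.14 in FBXL5ΔDC livers and 0.16 ± 0.14 in control livers, and was called in the first.

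Genes for proteins of the mitochondrial ribosome had medians near 0. Of 78 genes, 3 were higher and 5 lower in FBXL5ΔDC livers and 2 higher and 1 lower in control livers, with medians of -0.04 and -0.06. The shares called higher, 3.85% and 2.56%, were below the background of 15% and 6.36%. Mrpl45 had changes of -0.86 ± 0.18 and -0.28 ± 0.18, and Mrpl19 of 0.90 ± 0.16 and 0.67 ± 0.15. Among cytosolic ribosomal proteins and paralogues outside the name rule, 6 genes (Rps3a1, Fau, Rack1, Rpl36al, Rpl7l1 and Rpl22l1) had medians of 0.23 and 0.17, and 1 was called, Fau in FBXL5ΔDC livers (0.39 ± 0.12, adjusted p = 0.0313, edgeR).

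Among 21 regulators linked to mTOR and ribosome production, 4 were higher and 6 lower in FBXL5ΔDC livers and 2 higher and 2 lower in control livers. Myc, a transcription factor known to drive ribosome production, had 51.6, 86.4 and 56.4 CPM at 6 h and 3.84, 2.28 and 3.19 CPM at 0 h in FBXL5ΔDC livers (4.38 ± 0.47). In control livers it had 52.6, 32.5 and 95.8 CPM at 6 h and 2.16, 3.38 and 5.28 CPM at 0 h (4.06 ± 0.46). Deptor, an inhibitor of mTOR, had changes of -1.48 ± 0.20 and -0.80 ± 0.20 and was called lower in both. Also called lower in FBXL5ΔDC livers were Depdc5 (-1.62), Eif4ebp2 (-0.94), Rptor (-0.81), Akt1s1 (-0.57) and Larp1 (-0.33). Eif4ebp1 (1.009), Larp4 (0.68) and Larp4b (0.60) were called higher there. In control livers the remaining calls were Larp4b (0.59) and Eif4ebp2 (-0.59). The activity of mTOR was not tested. Of 15 ribosome quality control genes, 3 (20%) were higher and 1 lower in FBXL5ΔDC livers and 2 (13.3%) higher in control livers, against a background of 15% and 6.36% higher. Abce1, which splits ribosomes after translation ends, had 106, 107 and 102 CPM at 6 h and 63.3, 58.0 and 59.6 CPM at 0 h in FBXL5ΔDC livers (0.80 ± 0.11), with 0.78 ± 0.11 in control livers.

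**Figure D4:**
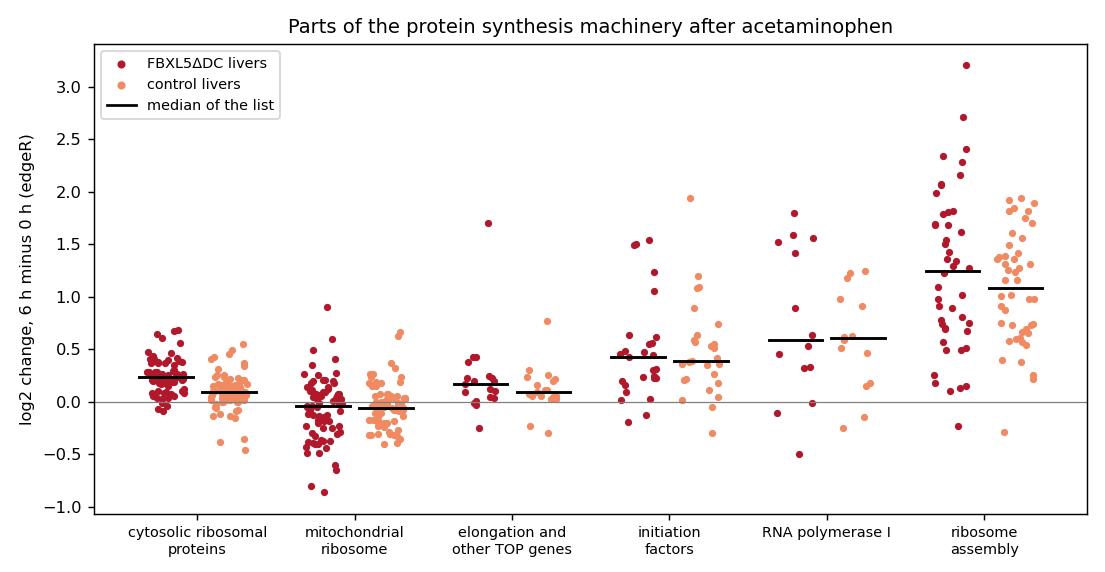
Log2 change, 6 h minus 0 h, of single genes (dots) in 6 parts of the protein synthesis machinery, with the median as a line, in FBXL5ΔDC livers (dark) and control livers (light). Medians of the ribosome assembly genes are 1.25 and 1.09, while those of the cytosolic ribosomal proteins are 0.24 and 0.10 and those of the mitochondrial ribosome -0.04 and -0.06.

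In whole liver, fewer cells of a type and less RNA per cell cannot be told apart, and markers of other cell types moved in the same comparison. The counts of called markers stand against 15% of all tested genes called higher and 15.1% lower in FBXL5ΔDC livers. In control livers that background was 6.36% and 4.2%. In FBXL5ΔDC livers 7 of 8 endothelial markers rose after acetaminophen, their summed level being 307 to 368 CPM at 6 h and 150.0 to 186 CPM at 0 h. In control livers 0 of 8 were called, with 148 to 251 CPM at 6 h and 139 to 177 CPM at 0 h. Of 8 stellate cell markers 4 rose in FBXL5ΔDC livers (233 to 291 CPM at 6 h, 79.5 to 135 CPM at 0 h) and 0 in control livers (126 to 204 CPM at 6 h, 104 to 168 CPM at 0 h). Of 10 Kupffer cell markers 4 rose in FBXL5ΔDC livers (238 to 405 CPM at 6 h, 186 to 242 CPM at 0 h) and 1 in control livers (208 to 256 CPM at 6 h, 155 to 188 CPM at 0 h).

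Cholangiocyte markers rose in 4 of 6 in FBXL5ΔDC livers (68.2 to 263 CPM at 6 h, 20.1 to 25.8 CPM at 0 h) and in 1 of 6 in control livers (27.2 to 82.2 CPM at 6 h, 15.01 to 23.5 CPM at 0 h). Of 10 neutrophil markers 5 were tested and 3 rose in FBXL5ΔDC livers, with sums of 2.95 to 9.78 CPM at 6 h and 0.73 to 1.87 CPM at 0 h. Elane, Mpo and Ngp had no counts in either of these groups. In control livers 1 of the 5 rose, with sums of 2.66 to 3.71 CPM at 6 h and 1.02 to 1.53 CPM at 0 h. The 9 dendritic cell markers summed to 66.8 to 86.3 CPM at 6 h and 33.9 to 60.01 CPM at 0 h in FBXL5ΔDC livers, and to 27.1 to 75.9 CPM and 44.5 to 53.2 CPM in control livers, and 0 were called in either. Hepatocyte markers were called higher in 2 of 12 (16.7%) in FBXL5ΔDC livers, near the background of 15%. Their sums there were 137600 to 172900 CPM at 6 h and 107200 to 117700 CPM at 0 h. In control livers 0 of 12 were called higher, with 89420 to 142600 CPM at 6 h and 97530 to 105400 CPM at 0 h. Monocyte markers were called higher in 2 of 8 in FBXL5ΔDC livers, where 4 changes were positive and the median log2 change was -0.03. In control livers 1 of 8 was called, all 8 changes were positive and the median was 1.32. Red cell markers were called higher in 0 of 5 tested in FBXL5ΔDC livers and 1 of 5 in control livers. Lymphocyte markers were called higher in 0 of 11 tested in either genotype. Of 6 proliferation markers 1 fell in FBXL5ΔDC livers and 0 in control livers. The part of these cell types in the levels of ribosomal protein genes was not tested.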

How the data were processed

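Whole-liver RNA was extracted with ISOGEN, per the labels' protocols. Per the submitters' processing notes, trimming used Trim Galore 0.6.6 and alignment to mm10 used HISAT2 2.2.1, and the counting program and strand setting are not given in the sources used here. The authors deposited estimated counts per gene, not normalised, in 1 table of 12 libraries. The values were already whole numbers, and 27.5% of values from 1 to 40 were multiples of 4, a share for which no expected value was computed. The fragments behind a count are not known. The planned test, written for counts, was kept.

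From there, genes were filtered with filterByExpr by group, scaled by TMM and fitted with edgeR 4.0.16 (R 4.3.3, robust quasi-likelihood, 1 coefficient per group, 8 residual degrees of freedom, common dispersion 0.153). Calls needed an adjusted p below 0.05. The script was tested on simulated counts. DESeq2 1.42.0, other scalings, no filter, added pseudogene counts, a replicate block and leaving out each library were alternatives. Annotation was GENCODE vM21 (GRCm38), matched by identifier for 55141 of 55401 genes. The members, lists and tests were chosen with earlier results of these data known. Named were the stalk, p53-linked, paralogue and Rps6 and Rpsa genes, for each contrast up to 4 called members with the largest change in each direction or the 2 with the lowest p, the 5 highest and 5 lowest levels, the 2 smallest responses per genotype, and up to 3 called genes per other list. Other genes named were chosen after their values were seen.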

Additional observations from a re-analysis of the deposited data

How the results depend on the processing

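Of 22 alternatives tried on 35 results for named genes, 661 values kept their direction and their side of the threshold, 55 lost a call, 13 gained one and 39 changed sign. The count of 11 members higher in FBXL5ΔDC livers ran from 4 to 35 when 1 library was left out. In those fits 9.98% to 16.9% of all tested genes were called higher. Under other alternatives without a block the count was 8 to 16, with a background of 8.09% to 18.8%. The count of 3 in control livers ran from 0 to 3 when 1 library was left out, with a background of 2.43% to 7.41%. It was 4 with library size alone (background 6.62%) and 3 in DESeq2 (10.2%). It was 2 with TMM without the members (6.35%) or with pseudogene counts added (6.42%). It was 1 with DESeq2 size factors in edgeR (5.94%) or TMM without mitochondrially encoded genes (5.86%). It was 0 with upper quartile factors (5.18%), without a filter on low counts (3.22%) or with only the 2 groups compared (1.45%). The cause was not tested, except that fewer samples entered the last fit. Leaving out 1 library gave 0 to 1 members higher between genotypes at 6 h (background 0.19% to 10.1%), with a median log2 difference of -0.0038 to 0.18. In the interaction it gave 0 to 1, with a background of 0% to 5.97%. Library size alone gave medians of -0.17 at 6 h and -0.23 at 0 h between genotypes. No alternative called a member lower.

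Samples with the same replicate number were not more alike than others. The mean correlation of deviations from group means was -0.014 over 18 pairs with the same number (range -0.061 to 0.044) and 0.007 over 36 with different numbers. Deviations cancel within a group, so these means are tied to each other and do not show whether samples shared a litter or day. With the replicate block, 7 members (8.86%) were higher in FBXL5ΔDC livers and 0 in control livers. These shares were below the background of 13.9% and 4.86% of all tested genes.

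The 39 sign changes concerned 6 named genes. In FBXL5ΔDC livers Rpl37a was 0.00 with DESeq2 size factors and in DESeq2, and Rpl22 was -0.039 with library size alone. In control livers Rpl11, Rps18 and Rps28 were -0.0514, -0.0726 and -0.0698 with upper quartile factors. Rps18 was -0.0099 with DESeq2 size factors and in DESeq2, -0.0125 with TMM without mitochondrially encoded genes and -0.0109 with pseudogene counts added. Rps28 was -0.0102, -0.0103 and -0.013 under the first 3 of these and -0.0004 with only the 2 groups compared. Leaving out 1 library gave ranges of -0.195 to 0.0553 for Rps27l, -0.104 to 0.147 for Rpl37a and -0.0424 to 0.137 for Rpl22 in FBXL5ΔDC livers. In control livers they were -0.0137 to 0.0601 for Rpl11, -0.0467 to 0.0704 for Rps18 and -0.0769 to 0.0624 for Rps28.

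The median SE of a member's log2 change was 0.13 with 3 libraries per group, which limits what could be called among changes of this size.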
